A study of Mus musculus with 18 samples.

Results

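The genes described here were 9 genes of the CXC chemokine system, chosen by symbol: the ligands Cxcl1, Cxcl2, Cxcl3, Cxcl5 and Ppbp, the ligands Cxcl9, Cxcl10 and Cxcl11, and the receptor gene Cxcr3. All 9 had an entry of their own among the 28934 entries with a reference gene, and 7 of the 9 were among the 14765 genes that reached 0.5 FPKM in at least 3 libraries and entered the test. Cxcl3 and Cxcl11 did not reach that level. RNA was sequenced from the forestomach of 18 male C57BL/6 mice, the squamous part of the mouse stomach that is used with the esophagus in chemical carcinogenesis. NMBA (N-nitrosomethylbenzylamine), a nitrosamine that induces tumors of the squamous upper digestive tract, was gavaged at 0.25 mg/kg 2 times a week for 5 weeks. The groups were CCR2-/- NMBA (n = 6), CCR2-/- control (n = 3), WT NMBA (n = 6) and WT control (n = 3). Controls were gavaged with 1% carboxymethyl cellulose, and mice were killed in week 25. CCR2-/- mice carried the germline allele Ccr2tm1Ifc, so every cell type lacked the receptor. The study's methods give an age of 6 weeks for purchased C57BL/6 mice and 4 to 8 weeks for mice that were bred, and the age of each sequenced mouse is not given in the sources used here. The study's text describes the sequenced samples as tumors where the labels give forestomach, and the tumor content of the single NMBA libraries was not available for these comparisons. In bulk tissue, fewer cells of a type and less RNA per cell cannot be told apart.

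CXC chemokines are small secreted proteins that guide leukocytes by binding receptors on their surface. In the mouse, the products of Cxcl1, Cxcl2, Cxcl3, Cxcl5 and Ppbp (the precursor of CXCL7) bind CXCR2, the main chemokine receptor of neutrophils, and are typically induced by IL-17, IL-1 and TNF through NF-kB. The products of Cxcl9, Cxcl10 and Cxcl11 bind CXCR3, which is carried by activated T cells and NK cells, and are classical targets of interferon-gamma. The first class is known for inflammation rich in neutrophils, and the second for recruitment of effector T cells into tissue and tumors.

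The 5 CXCR2 ligand genes lay together on chromosome 5 (GRCm38, plus strand), with Cxcl5 at 90759360 to 90761624, Ppbp at 90768518 to 90770063, Cxcl3 at 90786103 to 90789600, Cxcl1 at 90891241 to 90893115 and Cxcl2 at 90903871 to 90905938. The 3 CXCR3 ligand genes lay on the minus strand of the same chromosome, with Cxcl9 at 92321347 to 92328079, Cxcl10 at 92346638 to 92348889 and Cxcl11 at 92359544 to 92365485. Cxcr3 lay on chromosome X at 101731535 to 101734269, on the minus strand. Cxcl11 is annotated in GENCODE M21 as a polymorphic pseudogene, and C57BL/6 mice are known to carry a frameshift in it. The promoters of 7 of the 9 genes were matched in RefSeq (GRCm38.p6), from 250 bases before to 50 bases after the start site, and those of Cxcl5 and Cxcl11 were not. These promoters were searched on both strands for a form of the NF-kB motif, GGGA and CC with any 4 bases between them, and for a form of the interferon-stimulated response element (ISRE), GAAA and GAAA with any 2 bases between them. No match of the NF-kB form overlapped one of the ISRE form. The windows below set the classes side by side, with 1 NF-kB window for each gene that had a match and the ISRE window of Cxcl10. Each is 30 bases, 5′ to 3′ on the strand of the gene, with the matched letters in capitals.
Cxcl1, chr5:90891164-90891193: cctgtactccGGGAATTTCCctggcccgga
Cxcl2, chr5:90903792-90903821: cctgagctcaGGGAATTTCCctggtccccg
Cxcl3, chr5:90786018-90786047: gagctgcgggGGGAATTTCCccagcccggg
Cxcl9, chr5:92328190-92328219: tctgagagtaGGGTTTTCCCcaggacgatc
Cxcl10, NF-kB letters, chr5:92348973-92349002: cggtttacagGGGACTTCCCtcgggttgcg
Cxcl10, ISRE letters, chr5:92349083-92349112: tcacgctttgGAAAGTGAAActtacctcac

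The same 10 letters stood in the windows of Cxcl1, Cxcl2 and Cxcl3. Their first base was 71 bases before the start site in Cxcl1, 97 in Cxcl2 and 73 in Cxcl3. The NF-kB letters were found in 5 of the 7 promoters, against 20.7% of all 32851 RefSeq promoters, and the match of Cxcl9 was on the opposite strand. In Cxcl1, Cxcl2 and Cxcl3 a match on the other strand began 1 base on, the pattern matched on both strands at the same position in Cxcl10, and Cxcl1 and Cxcl10 each had a further match that is not shown. The ISRE letters were found in 1 of the 7, Cxcl10, against 3.44% of all promoters. Ppbp and Cxcr3 held neither pattern in this window. A match is a description of the letters, and no binding was measured here.

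Ccr2, the deleted receptor gene, separated the CCR2-/- libraries from those labelled WT. Its level was 0 to 0.0798 FPKM in the 6 CCR2-/- NMBA libraries and 0 to 0.0546 FPKM in the 3 CCR2-/- controls, against 1.30 to 3.43 FPKM in the 6 WT NMBA libraries and 1.83 to 2.37 FPKM in the 3 WT controls. The study also used heterozygous CCR2+/- mice, no library analysed here is labelled so, and this level cannot tell WT from heterozygous mice. Within WT NMBA, Ccr2 had 2.48, 1.30 and 1.69 FPKM in replicates 4 to 6, against 2.14, 3.43 and 2.63 FPKM in replicates 1 to 3, and these values overlapped. Ccr2 fell by 1.62 on the log2(FPKM + 1) scale in CCR2-/- mice under NMBA (SE 0.12, limma adjusted p = 1.55e-06). Over the whole series, relative depth, read from the spacing of low values, spanned 0.993 to 1.37 in arbitrary units, and libraries correlated with each other across genes at 0.924 to 0.985. Transcripts of the glandular stomach varied between libraries: Pgc, which encodes pepsinogen C, took 0.412 to 9.51% of the FPKM of a library, with the 2 highest shares in CCR2-/- NMBA replicate 4 and WT control replicate 3.

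All 9 genes were expressed at low levels, so values are given in FPKM, a count of sequenced fragments divided by gene length and library size, before any fold change. Ppbp was the most abundant CXCR2 ligand in all 4 groups, with means of 3.67 ± 1.76 FPKM in CCR2-/- NMBA (SD, n = 6), 1.71 ± 0.674 in CCR2-/- control (n = 3), 2.22 ± 1.46 in WT NMBA (n = 6) and 0.738 ± 0.259 in WT control (n = 3). Cxcl9 and Cxcl10 made up nearly the whole level of the CXCR3 ligands. The means of Cxcl9 were 1.17 ± 0.556 FPKM in CCR2-/- NMBA, 0.769 ± 0.0812 in CCR2-/- control, 1.63 ± 0.671 in WT NMBA and 0.433 ± 0.232 in WT control (SD, same n). Cxcl10 averaged 0.925 ± 0.342 FPKM in CCR2-/- NMBA, 0.768 ± 0.148 in CCR2-/- control, 1.14 ± 0.575 in WT NMBA and 0.445 ± 0.258 in WT control, so Cxcl9 led in the NMBA groups and the pair was level in the controls. The order of the group means split along the receptor classes. The mean of each of the 5 CXCR2 ligands was highest in CCR2-/- NMBA, whereas the means of Cxcl9, Cxcl10, Cxcl11 and Cxcr3 were highest in WT NMBA. Cxcl11 was at most 0.0456 FPKM in any library and was at 0 in part of each group. Its order is not read as a difference. WT NMBA came next for the CXCR2 ligands and CCR2-/- NMBA next for the others, and WT control was lowest for all 9. The leading group stayed the same when any 1 of the 18 libraries was left out for 7 of the 9 genes, with Cxcl11 counted among them. It changed for Cxcl2 without CCR2-/- NMBA replicate 3, and for Cxcr3 without WT NMBA replicate 2 or without CCR2-/- NMBA replicate 3. By median, Cxcr3 was highest in CCR2-/- NMBA. These orders are descriptions. As given below, none of the 7 genes tested passed across all genes between NMBA and control within a genotype, or between genotypes within a treatment. WT NMBA and CCR2-/- control, and CCR2-/- NMBA and WT control, were not tested against each other.

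**Figure D1:**
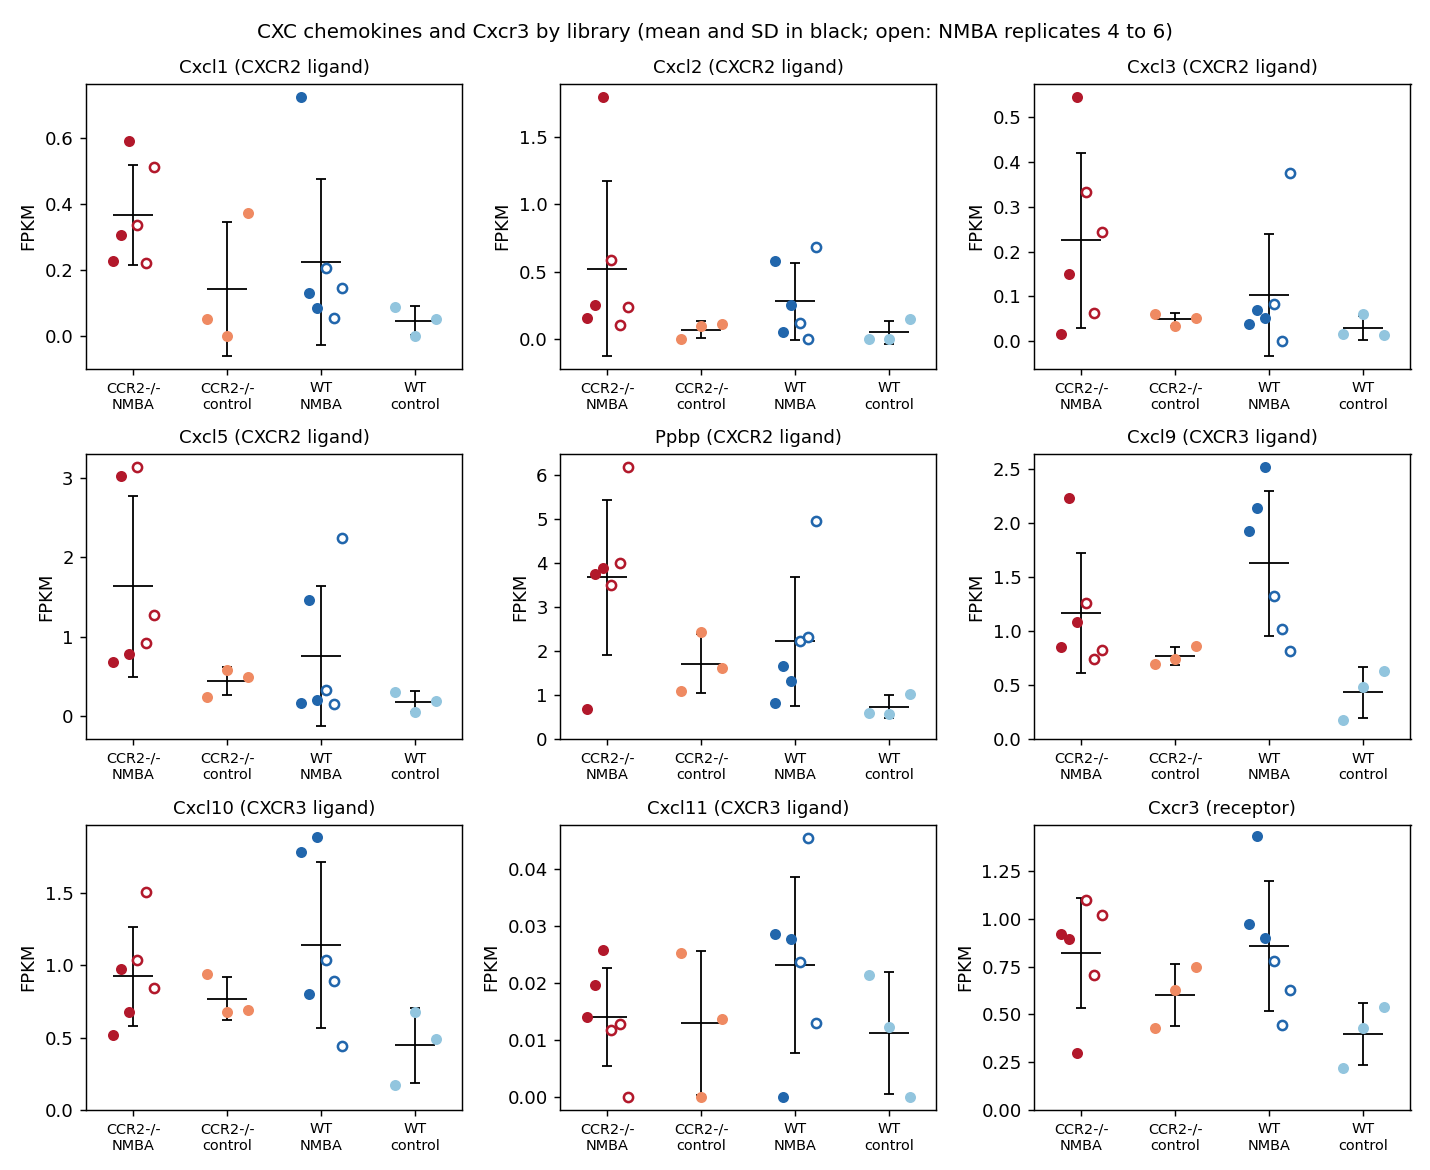
FPKM of the 9 genes in each library, 1 panel a gene, with CCR2-/- NMBA, CCR2-/- control, WT NMBA and WT control from left to right. Each point is 1 library, open points are NMBA replicates 4 to 6, and black marks give the mean and SD; the 5 CXCR2 ligands have their highest mean in CCR2-/- NMBA, and Cxcl9 has its highest in WT NMBA.

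The first question was how the chemokines differed between NMBA and control mice within each genotype. No member passed the threshold of 0.05 on limma's adjusted p in either genotype (0 of 7 in each), where few genes passed at all: 0.0203% of the 14765 genes tested in CCR2-/- and 0.088% in WT. All 7 genes had a positive log2 fold change in CCR2-/- mice, where 49.3% of all genes did, and all 7 in WT mice, where 48.2% did. The filter favoured this sign for some of them. Cxcl1 and Cxcl2 reached 0.5 FPKM in NMBA libraries only, and Cxcl5 in NMBA libraries and CCR2-/- control replicate 2. Their positive signs, and the medians of the CXCR2 ligands below, are therefore no support for a rise under NMBA. At an unadjusted p under 0.05, 1 of the 7 was higher under NMBA in CCR2-/- mice (Cxcl5), where 5.2% of all genes were. In WT mice 4 of the 7 were (Ppbp, Cxcl9, Cxcl10 and Cxcr3), where 5.45% were. No member was lower at that level in either genotype. Without WT control replicate 1 the count in WT mice was 1, and without any other single library it was 3 or 4. In CCR2-/- mice no member reached that level once replicate 2 or 4 of CCR2-/- NMBA, or replicate 1 or 2 of its controls, was left out, and 2 did once replicate 1 or 5 of CCR2-/- NMBA, or replicate 1 or 6 of WT NMBA, was left out. The median log2 fold change of the 4 CXCR2 ligands tested was 0.56 in CCR2-/- and 0.35 in WT mice. That of Cxcl9 and Cxcl10 was 0.18 in CCR2-/- and 0.69 in WT mice, and that of all genes was -0.00 in CCR2-/- and -0.01 in WT mice. Fold changes here are differences in log2(FPKM + 1), which understate the change of genes near or below 1 FPKM. The ratio of mean FPKM, NMBA over control, in WT mice was 4.92 for Cxcl1, 5.74 for Cxcl2, 4.18 for Cxcl5 and 3.01 for Ppbp. It was 3.75 for Cxcl9 and 2.56 for Cxcl10, so the order of the classes in WT mice depends on the scale. In CCR2-/- mice the same ratios were 2.58, 7.54, 3.73 and 2.14, against 1.52 and 1.21.

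Among the CXCR2 ligands, Cxcl5, an epithelial neutrophil attractant, ranged from 0.685 to 3.14 FPKM (median 1.09) in CCR2-/- NMBA, against 0.245, 0.583 and 0.486 FPKM in CCR2-/- control. Every CCR2-/- NMBA library lay above every CCR2-/- control, and 3.41% of all genes were separated in this direction. Cxcl5 differed by 0.78 on the log2 scale (SE 0.34, limma adjusted p = 0.408). In WT mice Cxcl5 ranged from 0.146 to 2.25 FPKM (median 0.262) under NMBA, against 0.305, 0.0498 and 0.188 FPKM in controls. The WT groups overlapped, with WT NMBA replicates 2 and 6 above all others, and the log2 fold change was 0.45 (SE 0.34, limma adjusted p = 0.630).

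Ppbp, which encodes a chemokine precursor best known from platelets, ranged from 0.688 to 6.18 FPKM (median 3.82) in CCR2-/- NMBA, against 1.09, 2.43 and 1.63 FPKM in CCR2-/- control. In CCR2-/- NMBA, 5 of 6 libraries lay above every control, and replicate 1 lay below all of them. This gave a log2 fold change of 0.70 (SE 0.37, limma adjusted p = 0.485). In WT mice Ppbp ranged from 0.828 to 4.96 FPKM (median 1.94) under NMBA, against 0.600, 0.578 and 1.04 FPKM in controls. Only WT NMBA replicate 1 fell within the span of the WT controls, and the log2 fold change was 0.79 (SE 0.37, limma adjusted p = 0.365). Ppbp is transcribed in megakaryocytes, so markers of that lineage were read beside it. Of 8 platelet and megakaryocyte markers, 7 were in the table and only 2 were past the filter, Pf4 and the entry that holds Gp1bb. Gp9, Gp5, Gp6 and Treml1 were at most 0.341 FPKM in any library. Gp1bb has no value here, since its entry is joined with Sept5 and their reads cannot be told apart. Pf4, the platelet CXC chemokine gene beside Ppbp, averaged 10.2 FPKM in CCR2-/- NMBA and 15.6 in CCR2-/- control, and 12.9 in WT NMBA and 18.7 in WT control, so its means were lower under NMBA where those of Ppbp were higher. Its log2 fold change was -0.60 in CCR2-/- (limma adjusted p = 0.474) and -0.47 in WT mice (adjusted p = 0.553). The part of platelets in the level of Ppbp or of Pf4 was not tested.

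Cxcl1 and Cxcl2, which encode inducible neutrophil attractants made by epithelium and myeloid cells, were mostly below 1 FPKM. Cxcl1 ranged from 0.221 to 0.588 FPKM (median 0.320) in CCR2-/- NMBA, against 0.0512, 0 and 0.373 FPKM in CCR2-/- control. In WT mice it ranged from 0.0527 to 0.724 FPKM (median 0.138) under NMBA, against 0.0866, 0 and 0.0499 FPKM in controls. CCR2-/- control replicate 3 lay among the NMBA libraries, and WT NMBA replicate 1 stood above every other library. Cxcl1 differed by 0.27 on the log2 scale in CCR2-/- (SE 0.14, limma adjusted p = 0.486) and 0.21 in WT mice (SE 0.14, adjusted p = 0.576). Cxcl2 ranged from 0.106 to 1.802 FPKM (median 0.246) in CCR2-/- NMBA, against 0, 0.0955 and 0.113 FPKM in CCR2-/- control. In WT mice it ranged from 0 to 0.682 FPKM (median 0.188) under NMBA, against 0, 0 and 0.147 FPKM in controls. CCR2-/- NMBA replicate 3 alone held the value of 1.802 FPKM, and the next was 0.585 FPKM. For Cxcl2 the log2 fold change was 0.43 in CCR2-/- (SE 0.23, limma adjusted p = 0.496) and 0.26 in WT mice (SE 0.23, adjusted p = 0.692).

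Cxcl3, a close relative of Cxcl2, was below the filter. It ranged from 0.0152 to 0.547 FPKM (median 0.197) in CCR2-/- NMBA, against 0.0618, 0.0339 and 0.0518 FPKM in CCR2-/- control. In WT mice it ranged from 0 to 0.375 FPKM (median 0.0615) under NMBA, against 0.0155, 0.0597 and 0.0134 FPKM in controls. The groups overlapped in both genotypes, and a two-sided exact permutation test on FPKM gave p = 0.167 in CCR2-/- and p = 0.286 in WT mice. Of the 50-base stretches of its transcripts, 4.29% were shared with other genes, mostly Cxcl2, of whose stretches 5.84% were shared, so the levels of this pair are uncertain to that extent.

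Among the CXCR3 ligands, Cxcl9, an interferon-gamma target that attracts activated T cells, had the smallest p of the 9 genes. It ranged from 0.821 to 2.52 FPKM (median 1.63) in WT NMBA, against 0.179, 0.484 and 0.636 FPKM in WT control. Every WT NMBA library lay above every WT control, as for 2.7% of all genes in this direction and 3.76% in the other, where no member stood. Its log2 fold change was 0.85 (SE 0.21), and the limma adjusted p = 0.155 missed the threshold. Over the alternatives tried, the limma adjusted p of this difference ran from 0.00618 to 0.585. The lowest came from a fit with replicate number as a block, where 278 of the 14765 genes were called, against 13 in the main fit. Cxcl9 was also called with NMBA replicates 1 to 3 alone, where 158 genes were. In CCR2-/- mice Cxcl9 ranged from 0.744 to 2.23 FPKM (median 0.972) under NMBA, against 0.701, 0.746 and 0.859 FPKM in controls. The CCR2-/- groups overlapped, and the log2 fold change was 0.26 (SE 0.21, limma adjusted p = 0.616). On the log2(FPKM + 0.1) scale, which compresses low values less, the fold change of Cxcl9 was 0.46 in CCR2-/- mice (limma adjusted p = 0.633) and 1.71 in WT mice (adjusted p = 0.0859).

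Cxcl10, the interferon-inducible partner of Cxcl9 at the same receptor, ranged from 0.520 to 1.51 FPKM (median 0.908) in CCR2-/- NMBA, against 0.939, 0.675 and 0.690 FPKM in CCR2-/- control. In WT mice it ranged from 0.440 to 1.89 FPKM (median 0.964) under NMBA, against 0.168, 0.680 and 0.488 FPKM in controls. The groups overlapped in both genotypes, and only WT NMBA replicate 6 fell within the span of the WT controls. Cxcl10 had a log2 fold change of 0.11 in CCR2-/- (SE 0.20, limma adjusted p = 0.837) and 0.54 in WT mice (SE 0.20, adjusted p = 0.268). Cxcl10 shares 133 exonic bases with Art3 on the opposite strand, and whether counting used strand is not given in the sources used here. Art3 averaged 5.97 FPKM in CCR2-/- NMBA and 8.67 in CCR2-/- control, and 6.05 FPKM in WT NMBA and 9.81 in WT control, so its means were lower under NMBA where those of Cxcl10 were higher. Cxcl11 was at most 0.0456 FPKM in any library and was listed at 0 in at least 1 library of each group, so no difference is given. Its means were 0.0140 FPKM in CCR2-/- NMBA, 0.0130 in CCR2-/- control, 0.0231 in WT NMBA and 0.0112 in WT control. Of its 50-base stretches 40.4% were shared with other genes, chiefly the processed pseudogene Gm2673, which overlaps it.

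Cxcr3, the receptor gene of activated T cells and NK cells, ranged from 0.297 to 1.10 FPKM (median 0.908) in CCR2-/- NMBA, against 0.430, 0.627 and 0.748 FPKM in CCR2-/- control. In WT mice it ranged from 0.443 to 1.43 FPKM (median 0.840) under NMBA, against 0.219, 0.429 and 0.540 FPKM in controls. Overlap in CCR2-/- mice came from NMBA replicates 3 and 5, and in WT mice from NMBA replicate 5. Cxcr3 had a log2 fold change of 0.17 in CCR2-/- (SE 0.16, limma adjusted p = 0.659) and 0.40 in WT mice (SE 0.16, adjusted p = 0.290). T cell markers were read beside it. Of 11 markers, 10 were past the filter, and the log2 fold change under NMBA was positive for 10 of 10 in both genotypes, with a median of 0.26 in CCR2-/- and 0.46 in WT mice and none called. Their summed level was 10.7 to 18.8 FPKM in CCR2-/- NMBA, against 8.95 to 13.8 FPKM in CCR2-/- control, and 8.22 to 17.4 FPKM in WT NMBA, against 4.63 to 8.54 FPKM in WT control. None of the 11 was at 0 in any library. The part of T cell number in the levels of Cxcl9, Cxcl10 and Cxcr3 was not tested.

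Cxcr2, the receptor gene of the other ligands, had a higher mean than any of them in all 4 groups. It ranged from 3.802 to 9.25 FPKM (median 5.43) in CCR2-/- NMBA, against 3.20, 3.98 and 4.43 FPKM in CCR2-/- control. In WT mice it ranged from 4.42 to 7.07 FPKM (median 5.60) under NMBA, against 4.21, 2.97 and 3.23 FPKM in controls, with every WT NMBA library above every WT control. Cxcr2 had a log2 fold change of 0.49 in CCR2-/- (SE 0.20, limma adjusted p = 0.388) and 0.56 in WT mice (SE 0.20, adjusted p = 0.259). Cxcr1, a second receptor gene of this class, was at most 0.165 FPKM in any library. Neutrophil markers were read beside Cxcr2, which is itself one of them. Of 12 markers, 11 were in the table and 5 were past the filter, and Ly6g, Mpo, Camp, Ngp, Mmp8 and Fpr1, which define neutrophils and their granules, averaged at most 0.256 FPKM in any group. Those past the filter were Cxcr2, Ltf, Retnlg, Mmp9 and Csf3r. Over all libraries Retnlg averaged 3.19 FPKM, Mmp9 1.93 and Csf3r 0.505. The log2 fold change under NMBA was positive for 3 of 5 in CCR2-/- mice (median 0.35) and 4 of 5 in WT mice (median 0.29), with none called. The summed level of the 11 was 16.6 to 43.4 FPKM in CCR2-/- NMBA and 19.7 to 28.2 in CCR2-/- control, and 17.3 to 51.8 FPKM in WT NMBA and 16.6 to 26.3 in WT control. Its largest single share came from Ltf, which encodes lactoferrin and is also made by glandular epithelium. The part of neutrophil number in the CXCR2 ligand levels was not tested.

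**Figure D2:**
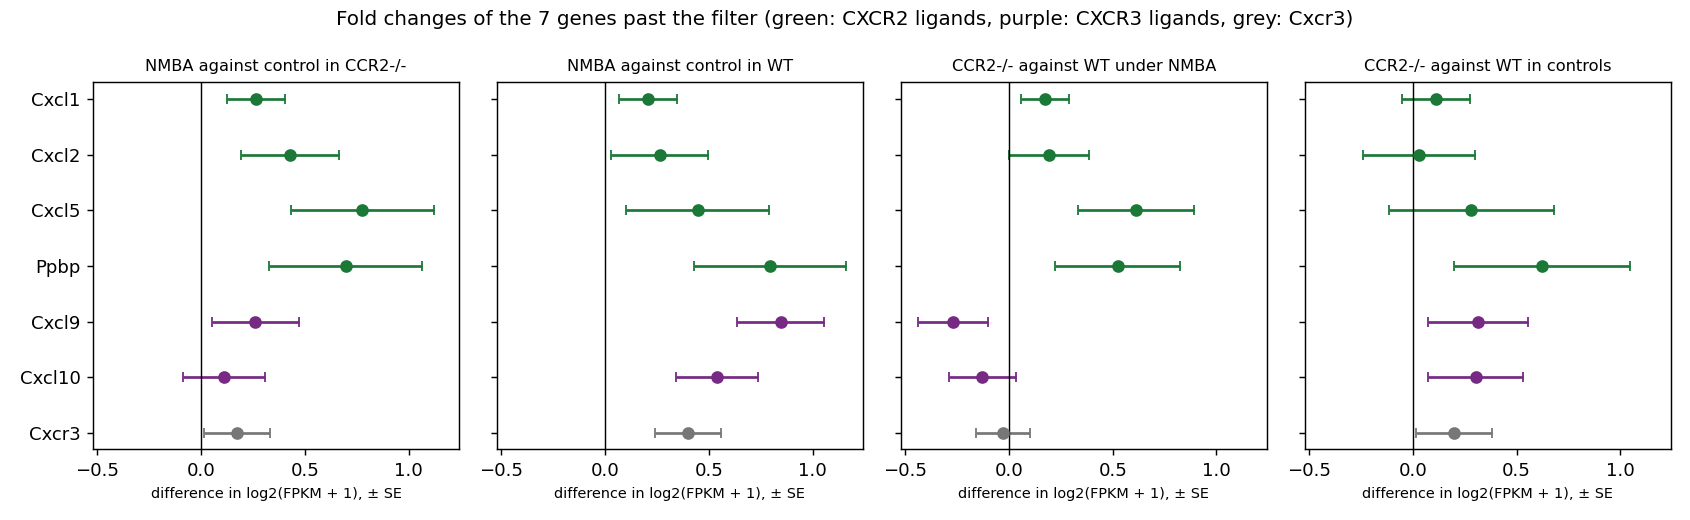
Differences in log2(FPKM + 1) with standard errors for the 7 genes past the filter, for NMBA against control in CCR2-/- and in WT mice and for CCR2-/- against WT under NMBA and in controls. Green marks the CXCR2 ligands, purple Cxcl9 and Cxcl10, and grey Cxcr3; under NMBA the green points lie above 0 in CCR2-/- against WT and the purple points below it, and none passed the adjusted threshold.

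The next question was whether loss of CCR2 changed the chemokine levels of NMBA mice. Of the 7 genes tested, 0 passed the threshold, where 0.0474% of all genes did. All 4 CXCR2 ligands had a positive log2 fold change in CCR2-/- NMBA against WT NMBA, with a median of 0.36, and both CXCR3 ligands had a negative one, with a median of -0.20. Of all genes 54.1% were positive, with a median of 0.02. Cxcl5 had the largest difference, 0.61 (SE 0.28, limma adjusted p = 0.730), with group means of 1.64 ± 1.14 FPKM in CCR2-/- NMBA and 0.757 ± 0.888 FPKM in WT NMBA (SD, n = 6 each). It was the only 1 of the 7 at an unadjusted p under 0.05, where 2.4% of all genes were higher at that level. No member was higher at that level once replicate 2, 4 or 6 of CCR2-/- NMBA, or replicate 3, 4 or 5 of WT NMBA, was left out, and 2 were once replicate 1 of CCR2-/- NMBA or replicate 6 of WT NMBA was left out. Leaving out replicate 2 of CCR2-/- NMBA or replicate 6 of WT NMBA made 1 member lower at that level. For no member did the 2 groups stand apart, as they did for 0.122% of all genes in the higher and 0.203% in the lower direction. Ppbp differed by 0.52 (SE 0.30), Cxcl2 by 0.19 (SE 0.19) and Cxcl1 by 0.17 (SE 0.12). Without CCR2-/- NMBA replicate 3, the difference of Cxcl2 was 0.00. The difference was -0.27 for Cxcl9 (SE 0.17), -0.13 for Cxcl10 (SE 0.16) and -0.03 for Cxcr3 (SE 0.13), and all 7 genes came with a limma adjusted p of 0.730 or more. Cxcl3 averaged 0.225 FPKM in CCR2-/- NMBA and 0.103 FPKM in WT NMBA (two-sided exact permutation p = 0.255).

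In controls, CCR2-/- and WT mice could be compared with 3 libraries each. None of the 7 genes passed the threshold, where 0.00677% of all genes did, and all 7 log2 fold changes were positive, where 49.6% of all genes were. The largest were 0.62 for Ppbp (SE 0.42), 0.32 for Cxcl9 (SE 0.24) and 0.30 for Cxcl10 (SE 0.23), and none was at an unadjusted p under 0.05, where 2.81% of all genes were higher at that level. Every CCR2-/- control lay above every WT control for Ppbp and for Cxcl9, and 4.47% of all genes were separated in this direction and 4.74% in the other. Ppbp had 1.09, 2.43 and 1.63 FPKM in CCR2-/- control, against 0.600, 0.578 and 1.04 FPKM in WT control. Markers of the glandular stomach were also higher in the mean, with a positive difference for 8 of 8, a median of 1.63 and none called. Their summed level was 25927 to 42387 FPKM in CCR2-/- control, within the 4436 to 49782 FPKM of WT control. The difference was also positive for 10 of 10 T cell markers, with a median of 0.23 and none called, and their summed level of 8.95 to 13.8 FPKM in CCR2-/- control lay above the 4.63 to 8.54 FPKM of WT control. The part of tissue content and of T cells in these differences was not tested. For Cxcl3, 3 libraries against 3 cannot give an exact permutation p below 0.1, and p was 0.3.

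The difference of the NMBA responses, CCR2-/- minus WT, was tested in the same fit, and 0 of the 7 genes and 0% of all genes passed, while an unadjusted p under 0.05 was reached by 292 higher genes (1.98%) and 381 lower ones, none of them a member. Leaving out WT NMBA replicate 6 put 2 members among the lower ones, and leaving out WT NMBA replicate 5, WT control replicate 3 or CCR2-/- NMBA replicate 2 put 1 there. The difference was positive for 3 of the 7, where 52.8% of all genes were positive. For Cxcl9 the response had a smaller fitted size in CCR2-/-, with a difference of -0.59 (SE 0.29, limma adjusted p = 0.893), and for Cxcl10 the difference was -0.43 (SE 0.28, adjusted p = 0.893). For Cxcr3 it was -0.23 (SE 0.22), for Cxcl5 0.33 (SE 0.49), for Cxcl2 0.16 (SE 0.33), for Cxcl1 0.06 (SE 0.20) and for Ppbp -0.10 (SE 0.52). For the 4 CXCR2 ligands the standard error exceeded the size of the difference.

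To compare the classes within a library, FPKM was summed over the 5 CXCR2 ligands and over the 3 CXCR3 ligands. The CXCR2 ligand sum averaged 6.42 ± 2.52 FPKM in CCR2-/- NMBA, 2.41 ± 0.871 in CCR2-/- control, 3.59 ± 2.42 in WT NMBA and 1.04 ± 0.375 in WT control. The CXCR3 ligand sum averaged 2.11 ± 0.653 FPKM in CCR2-/- NMBA, 1.55 ± 0.122 in CCR2-/- control, 2.79 ± 1.16 in WT NMBA and 0.890 ± 0.452 in WT control (SD, n = 6, 3, 6 and 3). The log2 ratio of the sums, CXCR2 over CXCR3 ligands, was 1.499 ± 0.72 in CCR2-/- NMBA, 0.57 ± 0.69 in CCR2-/- control, 0.28 ± 1.35 in WT NMBA and 0.34 ± 1.11 in WT control. All 6 CCR2-/- NMBA libraries were above 0, from 0.35 to 2.34, whereas WT NMBA spanned -1.22 to 2.72 and enclosed them. The highest WT NMBA value came from replicate 6, and without it the WT NMBA mean was -0.20. Taken as a difference of mean log2(FPKM + 1) over the members of each class, the value was 0.25 in CCR2-/- NMBA, -0.10 in CCR2-/- control, -0.21 in WT NMBA and -0.11 in WT control, so it was below 0 in the last 3 groups. No p is given for these sums, since the genes in them were chosen with results known. Cxcl5 and Ppbp made up 42.4 to 97.9% of the CXCR2 ligand sum in a library. The sum of Cxcl1, Cxcl2 and Cxcl3 alone averaged 1.11 ± 0.955 FPKM in CCR2-/- NMBA, 0.260 ± 0.240 in CCR2-/- control, 0.608 ± 0.531 in WT NMBA and 0.124 ± 0.0777 in WT control.

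**Figure D3:**
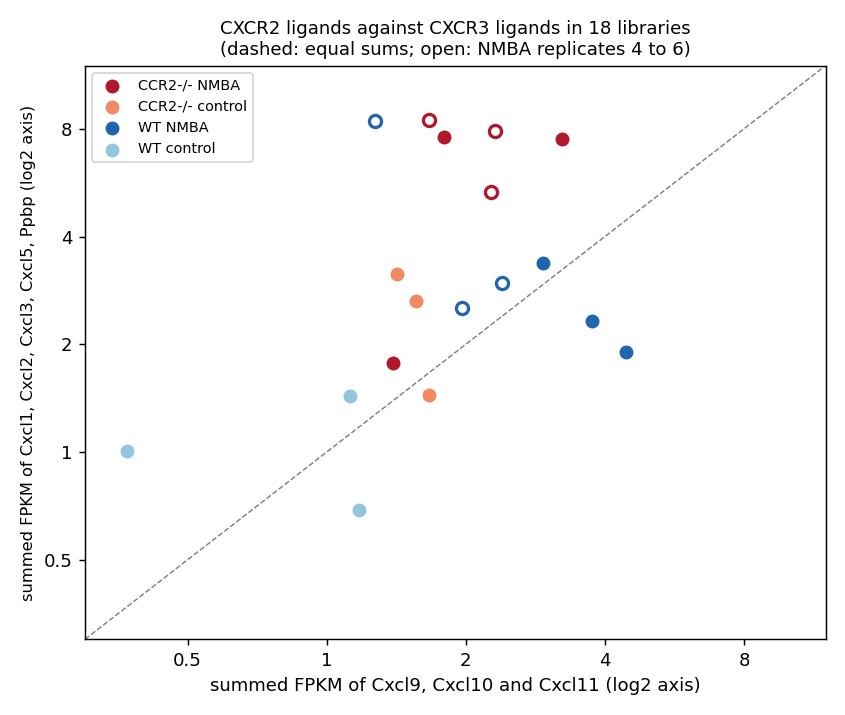
Summed FPKM of the 5 CXCR2 ligands (vertical, log2 axis) against that of the 3 CXCR3 ligands (horizontal, log2 axis), 1 point a library, with open points for NMBA replicates 4 to 6 and the dashed line at equal sums. All 6 CCR2-/- NMBA libraries lie above the line, with log2 ratios of 0.35 to 2.34, and the WT NMBA libraries lie on both sides, from -1.22 to 2.72.

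The NMBA libraries carried different code letters in their titles for replicates 1 to 3 and 4 to 6 of each genotype, and what the letters stand for is not given in the sources used here. Within WT NMBA the values of some members stood apart between these sets. Cxcl9 had 1.33, 1.02 and 0.821 FPKM in WT NMBA replicates 4 to 6, against 1.93, 2.14 and 2.52 FPKM in replicates 1 to 3. Ppbp had 2.22, 2.33 and 4.96 FPKM in replicates 4 to 6, against 0.828, 1.66 and 1.32 FPKM in replicates 1 to 3. Neither pair of sets overlapped, with Cxcl9 lower and Ppbp higher in replicates 4 to 6. Cxcr3 was also apart, at 0.780, 0.443 and 0.629 FPKM in WT NMBA replicates 4 to 6, against 0.973, 1.43 and 0.900 FPKM in replicates 1 to 3. The share of all genes that stood apart in this way was not counted, so the separation is not read as particular to these genes. In the fit described next, 1286 of the 14765 genes had an unadjusted limma p under 0.05 between these sets of WT NMBA. In a fit with the sets as groups, chosen after the data had been seen, the difference of replicates 4 to 6 minus 1 to 3 in WT NMBA was -0.64 for Cxcl9 (SE 0.18, limma adjusted p = 0.423) and 0.83 for Ppbp (SE 0.36, adjusted p = 0.562). It was -0.46 for Cxcl10 and -0.37 for Cxcr3, both with an adjusted p of 0.562. In CCR2-/- NMBA the differences were -0.27 for Cxcl9, 0.68 for Ppbp, 0.30 for Cxcl10 and 0.21 for Cxcr3, with adjusted p from 0.502 to 0.635. None of the 7 genes was called in either genotype, where 0% of all genes was called, nor over both genotypes together, where 0.176% were.

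Within these sets, the NMBA comparisons gave the following values. With WT NMBA replicates 1 to 3 alone, Cxcl9 was higher than in WT control by 1.17 (SE 0.19, limma adjusted p = 0.0185) and was called. In that setting 158 of the 14765 genes were called, against 13 with all libraries. With replicates 4 to 6 alone the difference of Cxcl9 was 0.53 (SE 0.15, limma adjusted p = 0.520), and 3 genes were called. For CCR2-/- NMBA against WT NMBA, Cxcl5 differed by 0.60 in replicates 1 to 3 and 0.62 in replicates 4 to 6, and Ppbp by 0.60 in replicates 1 to 3 and 0.45 in replicates 4 to 6. Cxcl9 differed by -0.46 in replicates 1 to 3 and -0.08 in replicates 4 to 6. Cxcl10 differed by -0.51 in replicates 1 to 3 and by 0.25 in replicates 4 to 6, and Cxcr3 by -0.32 in replicates 1 to 3 and 0.26 in replicates 4 to 6, so the direction for these 2 genes turned between the sets. Marker levels of other cell types stood apart between the sets too, but not for the same lists in both genotypes. In WT NMBA, the summed glandular stomach markers were 24169 to 46348 FPKM in replicates 4 to 6, against 8512 to 11173 FPKM in replicates 1 to 3. The T cell markers summed to 8.22 to 13.9 FPKM in replicates 4 to 6, against 16.0 to 17.4 FPKM in replicates 1 to 3. In CCR2-/- NMBA both lists overlapped between replicates 4 to 6 and 1 to 3. Glandular stomach had 7731 to 63872 against 5576 to 19625 FPKM, and T cells 10.7 to 17.5 against 13.2 to 18.8 FPKM. There squamous markers (11179 to 13021 against 8490 to 10172 FPKM) and muscle markers (2198 to 2805 against 688 to 2070 FPKM) stood apart. The part of these lists in the chemokine differences was not tested.

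**Figure D4:**
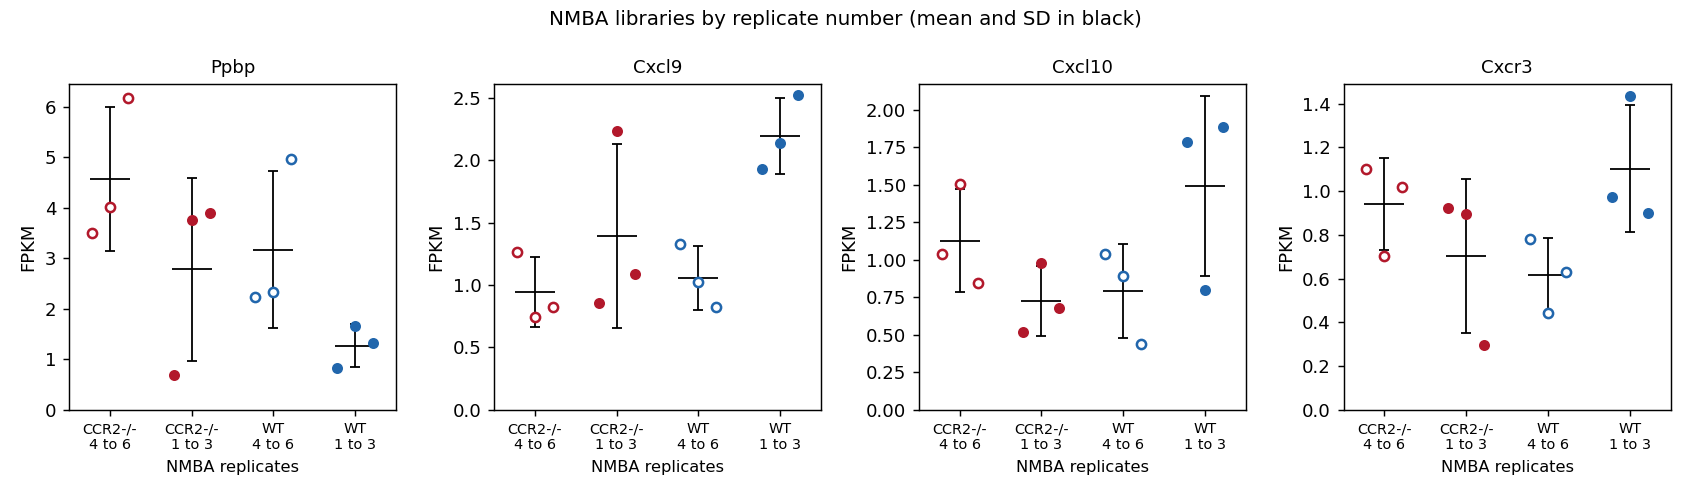
FPKM of Ppbp, Cxcl9, Cxcl10 and Cxcr3 in the 12 NMBA libraries, by genotype and replicate number, with replicates 4 to 6 (open) left of 1 to 3 (filled), CCR2-/- left of WT, and the mean and SD in black. In WT NMBA, the 3 Cxcl9 values of replicates 4 to 6 (0.821 to 1.33) lie below those of replicates 1 to 3 (1.93 to 2.52), and the 3 Ppbp values lie above.

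The genes that act upstream of each class were counted next. Of 17 listed inducers of the CXCR2 ligands, 14 were in the table and 12 past the filter, and none was called in any comparison. The log2 fold change under NMBA was positive for 12 of 12 in CCR2-/- mice (median 0.21) and for 12 of 12 in WT mice (median 0.28), against medians of all genes of -0.00 and -0.01. The 2 most abundant were Il17rc, a subunit of the IL-17 receptor, and Nfkbia, the NF-kB inhibitor that is itself an NF-kB target. Il17rc averaged 68.2 FPKM in CCR2-/- NMBA and 55.8 in CCR2-/- control, and 69.0 FPKM in WT NMBA and 68.8 in WT control. Nfkbia averaged 61.5 FPKM in CCR2-/- NMBA and 51.9 in CCR2-/- control, and 65.6 FPKM in WT NMBA and 54.3 in WT control. Il1b, which encodes IL-1 beta and was named after its values were seen, averaged 3.84 FPKM in CCR2-/- NMBA and 0.521 in CCR2-/- control, with a log2 fold change of 1.28 (SE 0.57, limma adjusted p = 0.414). In WT mice Il1b averaged 2.89 FPKM under NMBA and 0.350 in controls, with a log2 fold change of 1.22 (SE 0.57, adjusted p = 0.371). Il17a, which encodes IL-17A, averaged at most 0.413 FPKM in any group. Between CCR2-/- and WT mice under NMBA, 5 of the 12 inducers were positive, with a median of -0.00.

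Of 12 listed inducers of the CXCR3 ligands, 8 were past the filter and none was called. The log2 fold change under NMBA was positive for 1 of 8 in CCR2-/- mice (median -0.17) and for 6 of 8 in WT mice (median 0.15). The 2 most abundant were Il18, which encodes a cytokine that raises interferon-gamma, and Ifngr1, a subunit of the interferon-gamma receptor. Il18 averaged 106.5 FPKM in CCR2-/- NMBA and 119.4 in CCR2-/- control, and 122.9 FPKM in WT NMBA and 113.0 in WT control. Ifngr1 averaged 18.2 FPKM in CCR2-/- NMBA and 23.5 in CCR2-/- control, and 18.3 FPKM in WT NMBA and 18.4 in WT control. Ifng itself was below the filter, at means of 0.0627 FPKM in CCR2-/- NMBA, 0.119 in CCR2-/- control, 0.112 in WT NMBA and 0.0256 in WT control. Irf1, a transcription factor induced by interferon-gamma and named after its values were seen, averaged 4.15 FPKM in CCR2-/- NMBA and 6.60 in CCR2-/- control, and 5.84 FPKM in WT NMBA and 4.63 in WT control. The difference of its NMBA responses, CCR2-/- minus WT, was -0.91 (SE 0.29, limma adjusted p = 0.893).

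The rest of the CXC family was counted last. Of 7 other CXC ligands 6 were past the filter and none was called, with a positive log2 fold change under NMBA for 0 of 6 in CCR2-/- mice (median -0.50) and 3 of 6 in WT mice (median 0.12). Cxcl17, a mucosal chemokine and the most abundant of them, averaged 17.7 FPKM in CCR2-/- NMBA and 27.2 in CCR2-/- control, and 17.9 FPKM in WT NMBA and 13.8 in WT control. Of 7 other CXC receptors 5 were past the filter and none was called, with 3 of 5 positive under NMBA in each genotype. Ackr3, a scavenging receptor for Cxcl12, averaged 3.74 FPKM in CCR2-/- NMBA and 4.84 in CCR2-/- control, and 3.38 FPKM in WT NMBA and 4.78 in WT control.

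How the members varied from library to library was described after the group means were taken off, as Pearson's r over 18 libraries that share the group fits. The 4 highest values among members were 0.53 for Cxcl1 and Cxcl2, 0.51 for Cxcl9 and Cxcr3, 0.50 for Cxcl9 and Cxcl10, and 0.49 for Cxcl5 and Ppbp. The other pairs of CXCR2 ligands ran from -0.15 for Cxcl1 and Cxcl5 to 0.21 for Cxcl2 and Ppbp, and Cxcl10 and Cxcr3 had 0.22. Between ligands of different classes the values ran from -0.40 for Cxcl5 and Cxcl10 to 0.13 for Cxcl1 and Cxcl10, and between CXCR2 ligands and Cxcr3 from -0.38 for Cxcl2 to 0.35 for Cxcl5. Over all genes kept, those most like Cxcl9 were the joined entry of Ncapd2, Gm28967 and Scarna10 (r = 0.87), Gbp2 (0.82), Gm3756 (0.82), the joined entry of Gm20489, Il2rg and Gm614 (0.81) and Myb (0.80). Those most like Cxcr3 were Laptm5 (0.90), Ccr7 (0.90), 3010026O09Rik (0.86), Cd300a (0.86) and H2-DMb2 (0.85). Those most like Ppbp were Gm10108 (0.83), Gm7027 (0.81), BC002163 (0.80), Chchd10 (0.79) and Prelid2 (0.76).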

How the data were processed

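Total RNA of 18 mouse forestomachs was sequenced on an Illumina HiSeq. The table holds FPKM values as deposited by the authors, 1 column a library. The submitters' processing notes list DESeq2 among tools and mm10 with GRCm38 among builds, and the aligner, counter, annotation release and use of strand are not given in the sources used here. Absolute depth is unknown and counting intervals could not be computed, and relative depth was read from the spacing of low values. FPKM are no counts, so limma (3.58.1, R 4.3.3, trend on expression) was fitted to log2(FPKM + 1) with the 4 groups as 1 factor. A gene was kept where 3 libraries or more reached 0.5 FPKM (14765 of 28934 entries with a reference gene). Tests were two-sided, with Benjamini-Hochberg adjustment over all genes kept in a comparison and a threshold of 0.05, and the script was tested on simulated data. Cxcl3, below the filter, was compared by exact permutation. The labels number the replicates without tying numbers to litters or cultures, so p-values measure only the spread between these libraries. Comparisons that use the same group share its libraries. The 9 members and all gene lists were chosen with earlier results of these data known. Named by rule were all members, Ccr2, Cxcr2 and Cxcr1, of each list of related genes its called genes and the 2 kept genes of highest mean FPKM, and the 5 genes most correlated with Ppbp, Cxcl9 and Cxcr3. Of the marker lists, those for NK cells, macrophages, squamous epithelium and muscle are summarised in the closing observations. Alternatives changed the pseudocount, filter, scaling, weights, replicate block, groups in the fit and libraries used. Promoters were matched by symbol to RefSeq and gene positions to GENCODE M21. Python 3.11.15 and matplotlib 3.10.9 made the figures.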

Additional observations from a re-analysis of the deposited data

Results flagged for a closer look

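In 24 sets of 6 NMBA libraries (9 genes, 2 sums and their ratio in each genotype), 6 had a highest library far from the next. The rule used would flag about 1 in 20 sets of independent, normally distributed values. FPKM near 0 need not be so distributed, and the sums and ratio reuse the same genes. The count of flags is therefore no measure of an excess. Cxcl1 was 0.724 FPKM in WT NMBA replicate 1, against 0.204 FPKM in the next library. Cxcl2 was 1.802 FPKM in CCR2-/- NMBA replicate 3, against 0.585 FPKM in the next. Cxcl9 was 2.23 FPKM in CCR2-/- NMBA replicate 2, against 1.26 FPKM in the next. WT NMBA replicate 6 was set apart 3 times, by Cxcl3 at 0.375 FPKM (next 0.0837), Ppbp at 4.96 FPKM (next 2.33) and the CXCR2 ligand sum at 8.41 FPKM (next 3.38).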

How the results depend on the processing

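Of the 35 fold changes of 7 genes in 5 comparisons, 394 of 403 values under alternatives other than leaving out 1 library kept their direction and their side of the threshold. Cxcl9 in NMBA against control in WT passed it 2 times: with the replicate block (1.07, limma adjusted p = 0.00618), where 1 member was called, and with NMBA replicates 1 to 3 alone (1.17, adjusted p = 0.0185), where 1 was called. Over all alternatives its adjusted p was 0.00618 to 0.585. The labels do not tie replicate numbers to pairs. Same-numbered libraries correlated at -0.40 to 0.37 in NMBA against control in WT and at -0.29 to 0.43 between genotypes under NMBA. So few libraries cannot settle whether numbers pair the samples. Replicates 4 to 6 exist only under NMBA, so with the block this comparison rests mainly on replicates 1 to 3, and the 2 passes are not separate results. The block raised the genes called in NMBA against control in WT to 278, against 13. It also gave 294 against 3 in CCR2-/-. Over all genes, counts called that moved by over 1.5 times were, for WT (13), 26 with log2(FPKM + 0.1), 5 with no filter, 31 with library weights, 158 with NMBA replicates 1 to 3 alone, 3 with replicates 4 to 6 alone and 2 without the libraries rich in Pgc. For CCR2-/- (3), they were 1 with median scaling, 1 with the groups of the comparison alone, 138 with weights, 224 with replicates 1 to 3, 0 with replicates 4 to 6 and 5 without the Pgc-rich libraries. Between genotypes they were 3, 3 and 1 under NMBA (7; groups alone, replicates 1 to 3, replicates 4 to 6) and 4, 3, 2 and 4 in controls (1; no filter, groups alone, weights, replicates 1 to 3). Library weights turned the difference of NMBA responses to -0.018 for Cxcl1 and 0.16 for Ppbp. NMBA replicates 1 to 3 alone gave -0.042 for Cxcl10 in NMBA against control in CCR2-/- and -0.024 for Cxcl1 in the difference of responses. NMBA replicates 4 to 6 alone gave 0.25 for Cxcl10 and 0.26 for Cxcr3 in CCR2-/- against WT under NMBA, and 0.063 for Cxcr3 in the difference of responses. Leaving out 1 library kept direction in 619 of 630 values and called no member. The genes called ran from 1 (without WT control replicate 1 or 3) to 30 (without WT NMBA replicate 5) in WT, 0 (replicate 1, 2 or 3 of CCR2-/- NMBA or replicate 2 of its controls left out) to 6 (without CCR2-/- NMBA replicate 5) in CCR2-/-, 4 to 13 (without CCR2-/- NMBA replicate 5) between genotypes under NMBA, 1 to 6 (without CCR2-/- control replicate 1) in controls and 0 to 1 in the difference of responses. Directions turned for Cxcr3 under NMBA in CCR2-/- against WT (-0.10 to 0.068), in controls for Cxcl1 (-0.027 to 0.20) and Cxcl2 (-0.0037 to 0.10), and in the difference of responses for Cxcl1 (-0.029 to 0.20), Cxcl2 (-0.028 to 0.25) and Ppbp (-0.27 to 0.17). Without Cxcl5 and Ppbp the log2 ratio of sums was -1.24 in CCR2-/- NMBA, -2.96 in CCR2-/- control, -2.73 in WT NMBA and -2.86 in WT control, where the sum of the CXCR2 ligands loses its 2 largest members. As a difference of mean log2(FPKM + 1) it was 0.25 in CCR2-/- NMBA, -0.10 in CCR2-/- control, -0.21 in WT NMBA and -0.11 in WT control. Leaving out 1 library, the ratio ran from 1.33 to 1.73 in CCR2-/- NMBA, 0.28 to 0.95 in CCR2-/- control, -0.20 to 0.58 in WT NMBA and -0.21 to 0.90 in WT control. The causes were not tested. Levels under 1 FPKM and unknown depth limit Cxcl1, Cxcl2, Cxcl3 and Cxcl11 most.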

Other observations

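Other cell types were measured beside the chemokines, and 0 of their markers were called in any comparison. Of 7 NK cell markers 2 were past the filter, Gzma and the entry that holds Klrb1c, which is joined with Klrb1b. Their median log2 fold change under NMBA was -0.04 in CCR2-/- mice and 0.32 in WT mice, and the reads of the joined genes cannot be told apart. The 7 macrophage markers past the filter had a median of -0.13 in CCR2-/- and 0.06 in WT mice. The 5 squamous epithelium markers had a median of -0.05 in CCR2-/- and -0.03 in WT mice, but single markers went opposite ways. Named after their values were seen, Krt5, a basal keratin, had a log2 fold change of 1.19 in CCR2-/- (limma adjusted p = 0.149) and 0.99 in WT mice (adjusted p = 0.157), and Krt4, a keratin of the upper layers, -0.62 in CCR2-/- (adjusted p = 0.417) and -0.84 in WT mice (adjusted p = 0.242). The summed squamous markers were 8490 to 13021 FPKM in CCR2-/- NMBA and 11335 to 12484 in CCR2-/- control, and 9813 to 11998 FPKM in WT NMBA and 12764 to 13718 in WT control. The 6 muscle markers had a median of -0.63 in CCR2-/- and -0.88 in WT mice. The 8 glandular stomach markers had a positive fold change under NMBA for 0 of 8 in CCR2-/- mice (median -1.11) and for 8 of 8 in WT mice (median 0.78). Cxcl16, which encodes a membrane-bound ligand of CXCR6 and was named after its values were seen, averaged 3.43 FPKM in CCR2-/- NMBA and 3.52 in CCR2-/- control, and 4.01 FPKM in WT NMBA and 2.51 in WT control. Its log2 fold change was -0.03 in CCR2-/- mice (limma adjusted p = 0.924) and 0.51 in WT mice (SE 0.12, adjusted p = 0.136). The difference of the responses was -0.54 (SE 0.17, limma adjusted p = 0.893).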
